A study of Homo sapiens with 6 samples.

Results

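The respiratory chain of the inner mitochondrial membrane is built from subunits of nuclear and of mitochondrial origin, and its nuclear genes were followed here in cultured human pancreatic cancer cells of the line MIA PaCa-2. Rows of the deposited expression table were taken whose symbol begins with NDUF, UQCR, ATP5 or COX4 to COX8, or is one of SDHA, SDHB, SDHC and SDHD, that carried a single symbol, and that reached 1 FPKM in 3 or more of the 6 libraries. FPKM is the number of sequenced fragments scaled to transcript length and library size. The rule found 70 of the 18268 rows of the table, or 70 of the 9624 rows that were tested. They comprised 27 subunits and 8 assembly factors of complex I, 2 subunits of complex II, 8 rows of complex III, 10 of complex IV and 15 of complex V.

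The study sequenced total RNA of 3 libraries labelled LINC00901 KO (KO 1 to 3), a knockout of a long non-coding RNA gene, and 3 labelled LCV2 with the genotype Vector Control (vector control 1 to 3). Both groups were the same cell line in DMEM with fetal bovine serum and horse serum. The labels do not say whether the libraries came from separate cultures, or whether the knockout cells were 1 clone or a pool. The p-values therefore measure only the spread between these libraries, which may be technical.

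Complex I oxidizes NADH and complex II oxidizes succinate, and both pass electrons to coenzyme Q. Complex III hands them on to cytochrome c, complex IV reduces oxygen with them, and complex V, the ATP synthase, uses the resulting proton gradient to make ATP. Complexes I, III, IV and V combine the nuclear subunits described here with subunits encoded by mitochondrial DNA, whereas complex II is wholly nuclear.

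LINC00901 had 0 rows in the table, so the knockout was not checked and every direction rests on the labels. FPKM summed to between 123107 and 134389 per library. Vector control 1 stood apart from its group. Across tested rows it correlated at r = 0.904 and 0.906 with vector control 2 and 3, and at 0.932 with KO 3. Vector control 2 and 3 correlated with each other at 0.979. KO 1 also stood apart, at 0.933 and 0.935 with KO 2 and 3, which correlated with each other at 0.97. With vector control 2 and 3, KO 1 correlated at 0.92 and 0.921, and KO 2 and 3 at 0.894 to 0.897. Of 10 epithelial markers 8 had a row of their own. KRT18 and KRT19 were present in every library and CLDN4 in all but KO 1 (0.54 FPKM), whereas GRHL2 was listed at 0, and KRT7, EPCAM, CDH1 and ESRP1 were below 1 FPKM, in every library. The 8 summed to 108.3 to 160.1 FPKM in the vector controls and to 66.0 to 83.8 in the KO libraries. Only 3 of them, KRT18, KRT19 and CLDN4, were tested, and 0 were called. KRT18 was lower in every KO library (log2 fold change -0.94, adjusted p = 0.147), while KRT19 (-0.76) and CLDN4 (-1.6) overlapped. The part of these markers in the values below was not tested. Of 4 mesenchymal markers, VIM stood between 459.52 and 674.80 FPKM and ZEB1 between 3.54 and 4.63, while CDH2 and FN1 were below 1 FPKM in every library. The 5 leukocyte markers with a row summed to at most 0.68 FPKM in a library and the 4 endothelial ones to at most 0.34. The 6 fibroblast markers summed to 68.9 to 98.9 FPKM in the vector controls and 68.2 to 96.8 in the KO libraries. Among them DCN was listed at 0, COL1A2 was higher in every KO library (0.74, adjusted p = 0.119) and COL3A1 lower (-1.19, adjusted p = 0.164), neither passing the test.

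Nuclear regulation of these genes is known to run through the transcription factors NRF1, GABP (an ETS family protein) and YY1. RefSeq promoter windows (GRCh38.p14) of 300 bases, 250 before and 50 after each annotated start, were matched to 58 of the 70 genes. The full NRF1 word, a palindrome of 10 bases shown in capitals for NDUFB4 below, was present on either strand in 4 of the 58 (6.9%) and in 1.52% of all 27305 genes with a window. The 8 bases GCATGCGC, a shorter NRF1 word that lies within the longer one, were present in 14 of the 58 (24.1%) against 3.68% of all genes. The ETS word ACCGGAAG was present in 4 of the 58 (6.9%) against 2.62%, and the YY1 word AAGATGGCG in 7 of the 58 (12.1%) against 2.14%. All genes with a window were not limited to tested rows, so these shares do not compare the members with other expressed genes. The stretches below lie before the annotated start of a gene with a single start, and show these words in capitals in 1 gene each of complexes I, II, IV and V. The genes are NDUFB4 (chr3:120596137-120596226, plus strand), SDHB (chr1:17054114-17054272, minus strand), COX5B (chr2:97645886-97645973, plus strand) and ATP5F1C (chr10:7788115-7788176, plus strand), all on GRCh38.p14 and written 5′ to 3′ along the gene.
NDUFB4: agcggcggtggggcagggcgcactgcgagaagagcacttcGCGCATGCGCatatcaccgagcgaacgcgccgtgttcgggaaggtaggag
SDHB: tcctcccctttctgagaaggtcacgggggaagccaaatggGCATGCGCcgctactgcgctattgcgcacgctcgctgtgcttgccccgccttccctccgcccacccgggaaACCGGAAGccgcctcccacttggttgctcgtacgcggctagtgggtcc
COX5B: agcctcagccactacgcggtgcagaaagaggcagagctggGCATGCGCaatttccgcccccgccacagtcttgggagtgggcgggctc
ATP5F1C: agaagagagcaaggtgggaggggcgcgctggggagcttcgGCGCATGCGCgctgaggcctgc
NDUFB4 and ATP5F1C hold the full NRF1 word, COX5B the shorter NRF1 word alone, and SDHB the shorter NRF1 word followed by the ETS word. The window of SDHB also holds the YY1 word, outside the stretch shown. The 14 genes with the shorter NRF1 word had log2 fold changes from -0.36 to 0.26. Those of the 4 genes with the ETS word ran from -0.27 to 0.36, and of the 7 with the YY1 word from -0.27 to 0.32. Each of these words thus occurred in genes on both sides of 0. A match describes the letters of the window and is not evidence of binding.

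Across the whole chain, transcript levels of KO and vector control cells lay close together. No member passed the test: limma called 0 of the 70 in either direction at a Benjamini-Hochberg adjusted p below 0.05, where it called 1.35% of all tested rows (0.509% higher and 0.842% lower), and the lowest adjusted p among the members was 0.20. With 1.35% of all rows called, 70 rows would hold few or no calls in any case, so the count of 0 says little about the members. At an unadjusted p below 0.05 there were 3 members (4.29%), against 17.5% of all rows. There were 37 members above 0 and 33 below (52.9% above, against 59.3% of all rows). The median log2 fold change, KO minus vector control on the log2(FPKM + 1) scale, was 0.01 for the members and 0.08 for all tested rows. Folds given below are likewise ratios of FPKM + 1. Only COX6B1 had a log2 fold change of 0.5 or more in size, against 18.0% of all rows. These shares are not matched on level. Median FPKM was 11.7 for the members and 5.22 for all rows, and median SE was 0.17 and 0.20. The part of level in these shares was not tested. Summed FPKM of the 70 members was 1615.3, 1601.1 and 1607.9 in the vector controls and 1615.8, 1591.9 and 1561.7 in the KO libraries, which overlap.

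The precision of these values sets what could have been missed. The 95% intervals of the log2 fold change are limits for FPKM + 1. In either direction they lay within 1.5-fold for 37 members, within 2-fold for 63 and within 3-fold for all 70. Such limits understate changes of FPKM itself, most in low rows. With 0.1 added in place of 1, the SE rose from 0.34 to 0.54 for UQCRHL and from 0.46 to 0.54 for COX7A2L, so their limits were wider. The intervals that reached past 2-fold belonged to COX7A2L, NDUFV3, UQCRHL, COX4I1, COX7A2, NDUFAF8 and ATP5MC1, the widest reaching 2.83-fold for COX7A2L. For 65 of the 70 (92.9%), the range of the 3 libraries within at least 1 group was larger than the difference between the groups, as it was for 84.6% of all tested rows.

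In 10 of the 70 members the groups were fully apart, as they were in 23.8% of all rows. KO was lower in 8 (11.4%, against 8.35% of all rows) and it was higher in 2 (2.86%, against 15.4% of all rows). The 8 were NDUFAB1, NDUFS6, NDUFAF2, SDHB, UQCRH, COX5A, ATP5F1E and ATP5PD, and the 2 were NDUFB1 and COX6B1. With each library scaled to the same median, 11 were lower (15.7%, all rows 11.5%) and 1 was higher (1.43%, all rows 11.8%). This scaling shifts every row alike. It took the members above 0 from 37 to 23 of 70 (32.9%), and all rows above 0 from 59.3% to 49.6%.

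**Figure D1:**
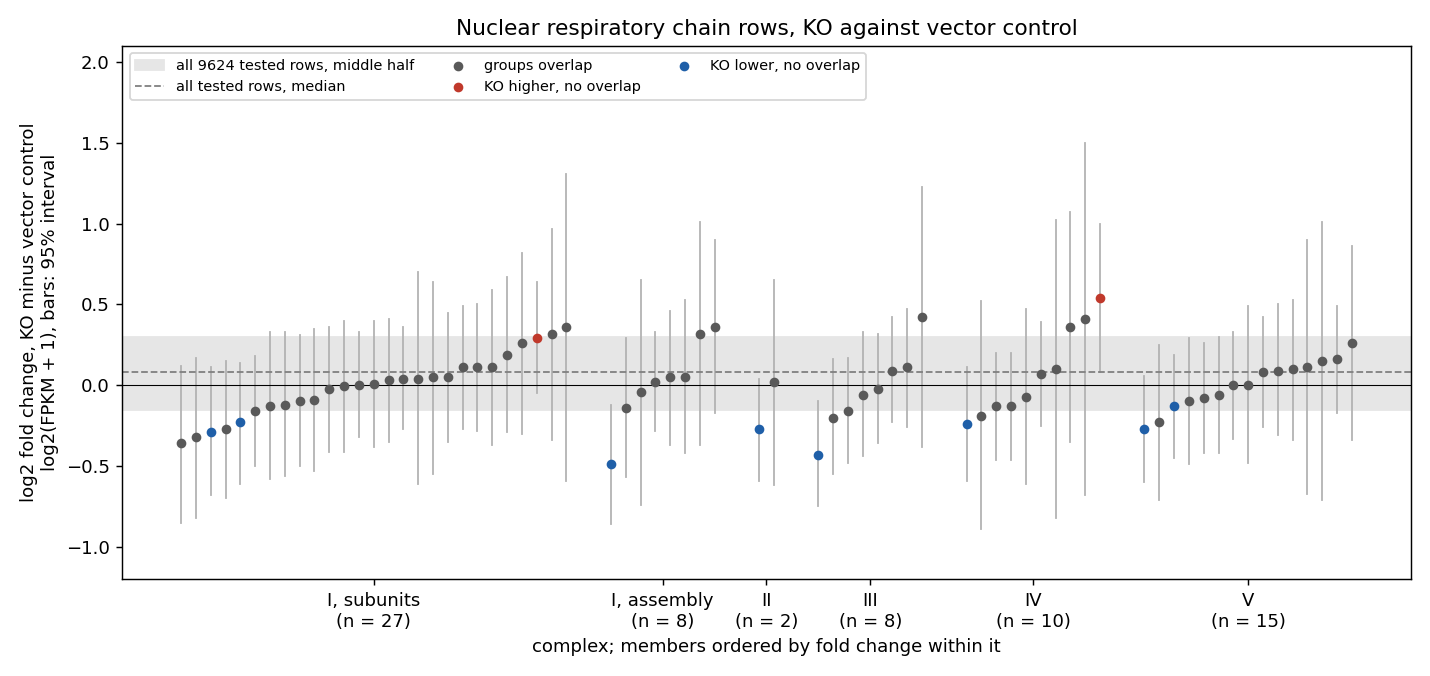
Each point is the log2 fold change of 1 of 70 respiratory chain genes (KO minus vector control, n = 3 libraries per group) with its 95% interval, grouped by complex along the x axis, and colour marks whether the groups overlapped. Points run from -0.49 for NDUFAF2 to 0.54 for COX6B1, and most lie within the grey band that holds the middle of all tested rows.

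Complex I showed no shared shift. The 27 subunit genes had a median log2 fold change of 0.00988 and ran from -0.36 to 0.36, with 15 above and 12 below 0 and 0 called. Their FPKM summed to 511.0, 484.1 and 481.2 in the vector controls and to 484.7, 514.6 and 470.0 in the KO libraries. Levels between the genes ranged more widely than between groups, from a mean over all libraries of 2.33 FPKM for NDUFA5 to 91.8 FPKM for NDUFB11.

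The nuclear core subunits carry the flavin and iron-sulfur centres or bind coenzyme Q. In the NADH-oxidizing part, the flavoprotein gene NDUFV1 stood at 9.94, 12.11 and 14.92 FPKM in control cells and 13.12, 10.32 and 10.84 in KO cells (log2 fold change -0.09, SE 0.19, adjusted p = 0.842). NDUFS1, whose product holds several iron-sulfur clusters, stood at 11.01, 7.69 and 8.82 against 8.82, 9.32 and 10.28 FPKM (0.05, SE 0.17). Both sets of values overlap throughout. In the quinone-binding part, NDUFS8 stood at 5.74, 9.24 and 7.81 against 7.06, 7.10 and 6.31 FPKM (-0.12, SE 0.19). NDUFS7 stood at 1.57, 3.77 and 3.56 against 3.19, 2.73 and 2.95 FPKM (0.05, SE 0.25). In NDUFS8 and NDUFS7 vector control 1 was the lowest of the 6 libraries and vector control 2 the highest. Adjusted p of these 4 core genes lay between 0.79 and 0.945.

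The lowest fold changes among the supernumerary subunits, which surround the core, were those of NDUFB4 and NDUFA5. NDUFB4 stood at 3.48, 5.48 and 5.86 FPKM in control cells and 3.86, 3.01 and 3.80 in KO cells (log2 fold change -0.36, SE 0.21, adjusted p = 0.406). NDUFA5 stood at 3.90, 1.96 and 2.36 against 1.77, 1.85 and 2.15 FPKM (-0.32, SE 0.21, adjusted p = 0.469). In NDUFB4 vector control 1 lay among the KO libraries, and in NDUFA5 it was the highest library. The highest fold changes were those of NDUFV3 and NDUFA2. NDUFV3 stood at 7.26, 3.11 and 3.20 FPKM in control cells and 2.95, 8.72 and 6.88 in KO cells (0.36, SE 0.40, adjusted p = 0.689), and NDUFA2 at 6.77, 9.91 and 14.56 against 16.17, 11.33 and 11.04 (0.32, SE 0.28, adjusted p = 0.601). NDUFV3 was high in vector control 1, KO 2 and KO 3 and low in the other 3 libraries, a division that runs across the groups. The same libraries were the highest for NDUFA8, at 44.13, 34.54 and 34.38 FPKM against 24.11, 23.85 and 23.59 in vector control 2, vector control 3 and KO 1. They also had the most histone RNA, at 6.28%, 5.21% and 5.25% of the FPKM sum against 2.83% to 3.29% in the other 3, and the part of this in the values was not tested.

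NDUFB1, NDUFAB1 and NDUFS6 were clear of overlap without passing the test. NDUFB1, a subunit of the membrane arm, stood at 9.52, 8.14 and 8.13 FPKM in control cells and 9.73, 11.20 and 11.32 in KO cells (0.29, SE 0.15, adjusted p = 0.352). NDUFAB1, the mitochondrial acyl carrier protein, stood at 17.20, 12.43 and 13.28 against 10.52, 11.75 and 12.03 FPKM (-0.29, SE 0.17, adjusted p = 0.415). Both gaps were narrow beside the spread inside the vector controls. NDUFB11, the most abundant complex I row, stood at 83.61, 91.20 and 96.80 against 89.73, 95.41 and 94.09 FPKM (0.04, 95% interval -0.27 to 0.36).

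The 8 NDUFAF genes encode assembly factors, which build complex I and are not part of the finished enzyme. They were expressed below most subunits, with means of 1.04 to 7.06 FPKM, and had a median log2 fold change of 0.04 with 0 called. NDUFAF2, which takes part in a late assembly step, had the lowest fold change of all 70 members: 7.05, 6.46 and 6.85 FPKM in control cells and 4.22, 5.43 and 4.04 in KO cells (-0.49, SE 0.16, 95% interval -0.86 to -0.12, adjusted p = 0.20). Every KO library lay below every vector control, but the difference did not pass over all tested rows. NDUFAF7, a methyltransferase of the mitochondrial matrix, stood at 6.0, 7.50 and 8.95 against 7.30, 5.80 and 6.81 FPKM (-0.14, SE 0.18). NDUFAF1 stood at 6.87, 5.72 and 3.86 against 8.65, 7.21 and 5.89 FPKM (0.36, SE 0.23, adjusted p = 0.451). NDUFAF8 stood at 3.67, 2.68 and 3.30 against 2.32, 6.20 and 5.03 FPKM (0.32, SE 0.29, adjusted p = 0.615), with KO 1 below every vector control and KO 2 and 3 above them.

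Complex II had 2 rows of its own, and SDHB, the iron-sulfur subunit, was the more abundant. SDHB stood at 38.00, 41.46 and 39.07 FPKM in control cells and 34.97, 30.34 and 32.23 in KO cells (0.826-fold; log2 fold change -0.27, SE 0.14, 95% interval -0.59 to 0.04, adjusted p = 0.343). The groups did not overlap, and the difference did not pass. SDHC, a membrane anchor, stood at 8.17, 10.78 and 9.35 against 12.48, 5.96 and 11.35 FPKM (0.02, SE 0.27, adjusted p = 0.983), and its KO libraries spanned both the highest and the lowest value. The flavoprotein gene SDHA and the anchor gene SDHD were present only in rows joined with neighbouring genes. The SDHD;BCO2;TEX12 row stood at 10.67, 11.95 and 11.33 FPKM in control cells and 9.50, 6.28 and 7.53 in KO cells (-0.50, adjusted p = 0.218). The PDCD6;SDHA;AHRR row stood at 9.22, 9.96 and 10.63 against 9.90, 9.18 and 9.22 FPKM (-0.07, adjusted p = 0.841).

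In complex III a single gene, UQCRH, made up nearly the whole difference in summed level. UQCRH encodes the hinge protein that lies beside cytochrome c1. It stood at 64.56, 75.29 and 64.13 FPKM in control cells and 52.47, 50.12 and 48.10 in KO cells (0.744-fold; log2 fold change -0.43, SE 0.14, 95% interval -0.75 to -0.10), and with adjusted p = 0.201 it did not pass. Every KO library lay below every vector control. Summed FPKM of the 8 complex III rows was 207.5, 210.1 and 206.9 in the vector controls and 189.4, 193.2 and 183.1 in the KO libraries. Without UQCRH the sums were 142.9, 134.8 and 142.7 against 137.0, 143.1 and 135.0, which overlap.

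UQCRHL, a copy of UQCRH elsewhere in the genome, had much lower values of 1.17, 1.0 and 0.74 FPKM in control cells and 0.68, 1.38 and 3.54 in KO cells (log2 fold change 0.42, SE 0.34, adjusted p = 0.567). KO 3 alone stood above the rest. In GENCODE 29, 29.4% of the 50-base words of UQCRH protein-coding transcripts also occur in UQCRHL, so how reads were divided between these rows is uncertain. The core proteins UQCRC1 and UQCRC2, which face the matrix, had log2 fold changes of -0.06 and -0.16. UQCRFS1, the Rieske iron-sulfur protein that passes electrons to cytochrome c1, stood at 51.60, 40 and 42.46 FPKM against 44.88, 50.90 and 48.00 (0.11, SE 0.15, adjusted p = 0.764). UQCRQ, a small quinone-site subunit, stood at 8.77, 10.95 and 10.52 against 8.16, 8.66 and 9.12 FPKM (-0.20, SE 0.15, adjusted p = 0.543). The remaining rows, UQCRB and UQCR10, had log2 fold changes of 0.09 and -0.02. CYC1, cytochrome c1 itself, lies outside the symbol rule and stood at 23.24, 23.47 and 24.36 FPKM against 24.81, 22.70 and 17.19 (-0.14, adjusted p = 0.702).

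**Figure D2:**
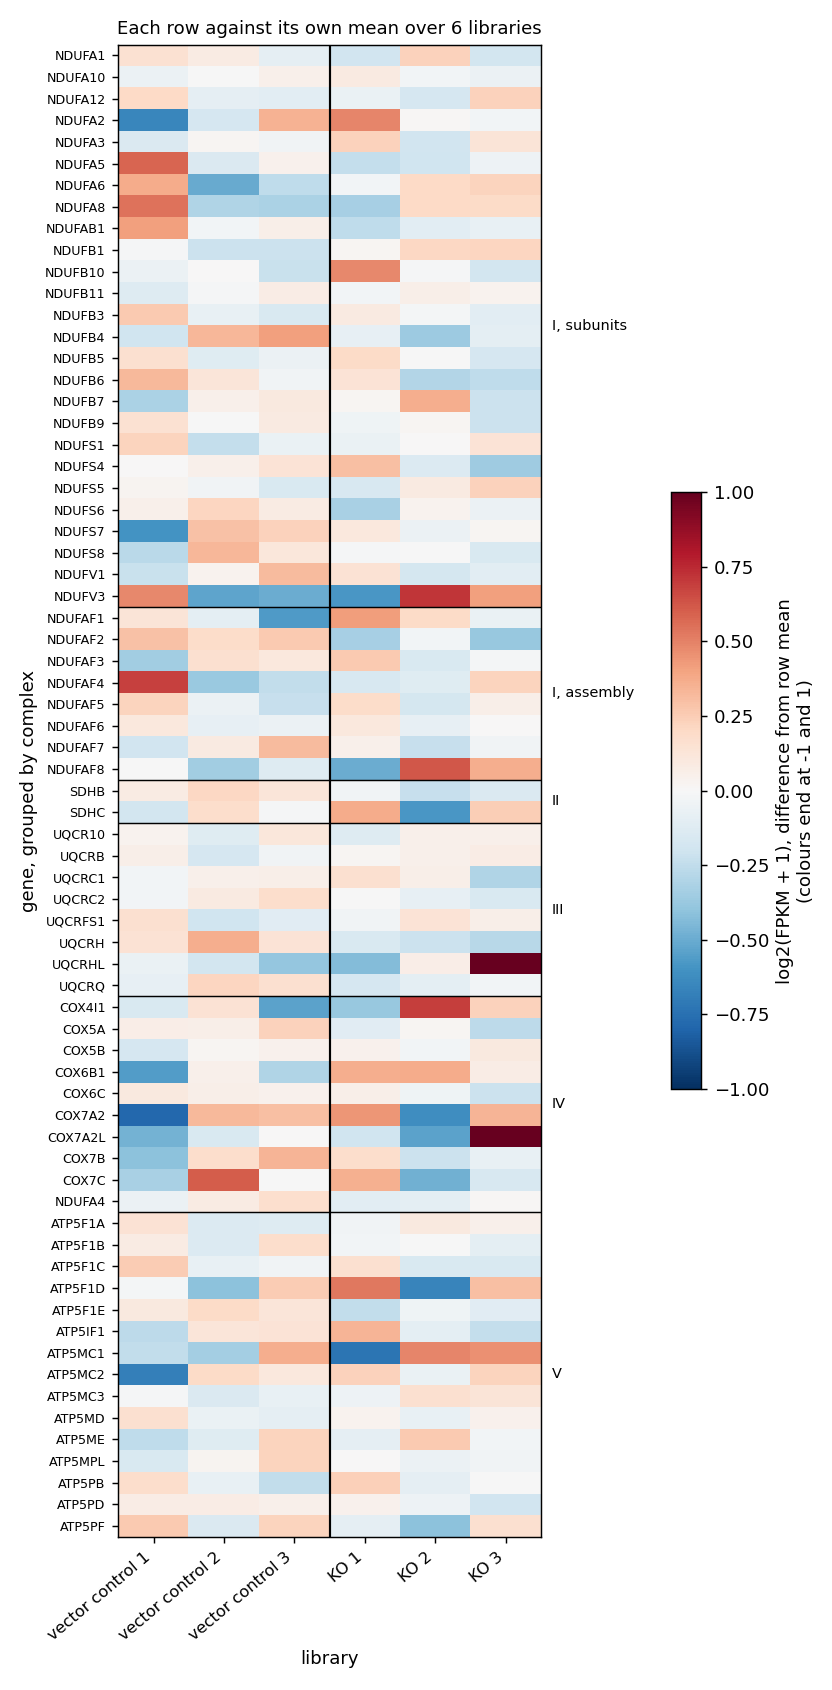
The heat map shows log2(FPKM + 1) of 69 of the genes in each library as the difference from the gene's own mean over 6 libraries, with genes in rows grouped by complex and the line between vector control and KO libraries. Few rows change colour at the line, UQCRH and NDUFAF2 among them, while NDUFV3 and NDUFA8 change within the groups.

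Complex IV, cytochrome c oxidase, held the highest fold change, and its values were the least precise: the median SE of its log2 fold changes was 0.21, against 0.15 to 0.20 for the other sets. COX6B1, a subunit on the cytochrome c side, stood at 23.45, 36.19 and 28.12 FPKM in control cells and 45.12, 45.54 and 36.92 in KO cells (1.45-fold; log2 fold change 0.54, SE 0.19, 95% interval 0.08 to 1.0). All 3 KO libraries lay above the vector controls, KO 3 only just above vector control 2. With adjusted p = 0.229 over all tested rows it did not pass. The median of the 10 complex IV rows was -0.000148, with 5 above and 5 below 0, and their FPKM summed to 206.9, 287.0 and 250.8 in the vector controls against 277.8, 250.7 and 268.4 in the KO libraries.

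The heme-bearing catalytic core of the enzyme is mitochondrially encoded, and the nuclear subunits stabilize and regulate it. COX4I1, which binds adenine nucleotides, stood at 22.70, 28.08 and 17.18 FPKM in control cells and 19.25, 41.43 and 29.90 in KO cells (0.36, SE 0.30, adjusted p = 0.578). COX5B, the most abundant row of the complex, stood at 62.45, 71.25 and 72.28 against 72.33, 68.74 and 75.19 FPKM (0.07, 95% interval -0.25 to 0.39). COX5A, a matrix-side subunit, stood at 11.65, 11.58 and 13.18 against 10.17, 11.21 and 9.04 FPKM (-0.24, SE 0.15, adjusted p = 0.445). COX5A was lower in every KO library, with KO 2 just under vector control 2, whereas COX5B overlapped.

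The small COX7 subunits varied within the groups more than between them. COX7A2, the widely expressed form of subunit VIIa, stood at 14.71, 32.88 and 32.25 FPKM in control cells and 35.60, 16.54 and 33.15 in KO cells (0.10, SE 0.39, adjusted p = 0.919). Vector control 1 and KO 2 were low and the other 4 libraries close together. COX7C stood at 31.91, 61.95 and 40.25 against 51.96, 28.67 and 35.89 FPKM (-0.19, SE 0.30, adjusted p = 0.788), and COX7B at 5.83, 9.24 and 10.45 against 9.26, 6.82 and 7.60 (-0.07, SE 0.23). In COX7C and COX7B too, vector control 1 and KO 2 were the lowest pair.

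COX7A2L, which joins complexes III and IV into supercomplexes, stood at 2.98, 3.97 and 4.53 FPKM in control cells and 3.80, 2.81 and 13.05 in KO cells (0.41, SE 0.46, adjusted p = 0.693). Its fold change rested on KO 3, which was the highest library by far. Transcripts of COX7A2 and COX7A2L share 0 words of 50 bases in GENCODE 29. NDUFA4, named for complex I but a subunit of complex IV, stood at 10.86, 12.04 and 12.90 against 10.47, 10.54 and 11.41 FPKM (-0.13, SE 0.14, adjusted p = 0.682), and COX6C had a log2 fold change of -0.13.

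Tissue-restricted forms were at or near 0 in both groups. COX4I2, COX6A2 and COX7B2 were listed at 0 in every library. COX7A1, the muscle form of subunit VIIa, reached at most 0.14 FPKM, COX8C at most 0.27, and NDUFA4L2, a hypoxia-inducible relative of NDUFA4, at most 0.16. With ATP5MGL, which reached 0.90, these were the 7 matching rows that fell below 1 FPKM and were not tested.

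**Figure D3:**
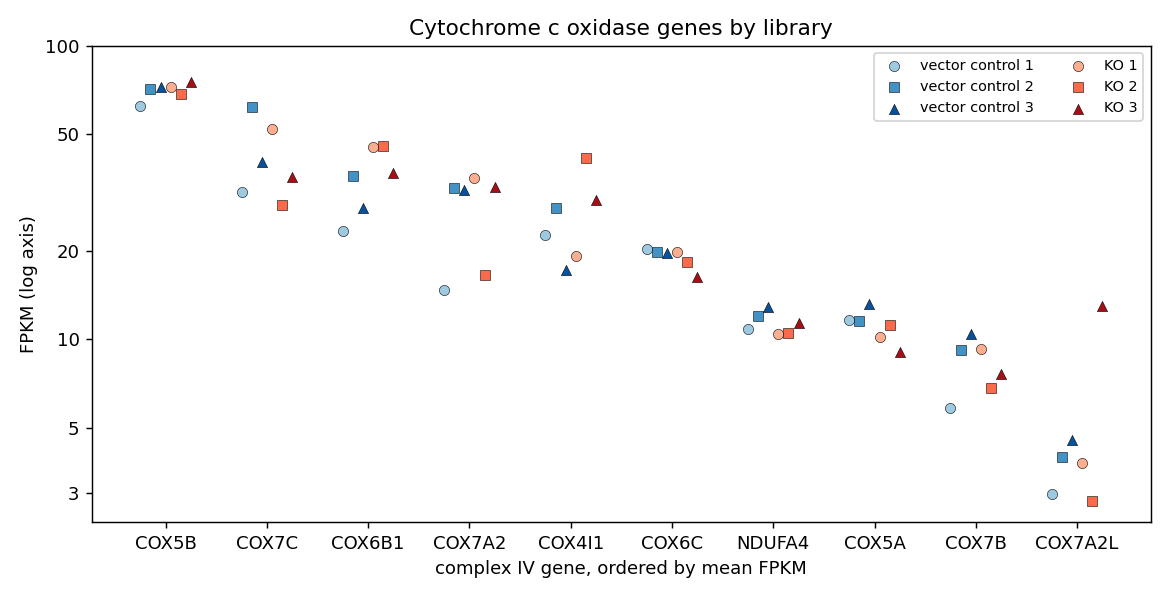
Points give the FPKM (log axis) of the 10 complex IV genes in each library, blue for vector controls and red for KO, ordered by mean level. COX6B1 is the gene in which red lies above blue throughout, COX7A2 is low in vector control 1 and KO 2, and COX7A2L is high in KO 3 at 13.05 FPKM.

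Complex V contained the most abundant row of the chain and had the narrowest range of fold changes among the complexes with more than 2 rows, from -0.27 to 0.26 with a median of 0.00314. ATP5F1B, the catalytic β subunit, stood at 194.26, 166.66 and 206.41 FPKM in control cells and 179.64, 182.62 and 171.28 in KO cells (-0.08, 95% interval -0.42 to 0.26, adjusted p = 0.804). ATP5F1A, the α subunit that alternates with it in the head, stood at 75.24, 61.79 and 61.96 against 66.24, 72.70 and 70.51 FPKM (0.08, SE 0.15). Complex V FPKM summed to 606.9, 535.9 and 588.4 in the vector controls and to 582.8, 563.4 and 563.5 in the KO libraries, which lay inside the range of the controls.

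In the central stalk, the γ subunit gene ATP5F1C had a log2 fold change of -0.10 and the δ subunit gene ATP5F1D of 0.11. ATP5F1E, the ε subunit, had the lowest fold change of the complex: 8.04, 8.63 and 8.18 FPKM in control cells and 6.14, 7.19 and 6.82 in KO cells (-0.27, SE 0.14, adjusted p = 0.367), without overlap. In the peripheral stalk, which holds the head still, ATP5PF stood at 14.92, 11.03 and 14.47 against 11.47, 8.96 and 13.79 FPKM (-0.23, SE 0.20, adjusted p = 0.60). ATP5PD stood at 27.25, 27.34 and 26.81 against 26.75, 24.94 and 22.49 FPKM (-0.13, SE 0.14, adjusted p = 0.659), so that its lack of overlap rested on a gap of a few hundredths of an FPKM. ATP5PB had a log2 fold change of 0.09.

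Subunit c, which forms the rotating ring, is encoded by 3 genes that differ in their targeting peptides and give the same mature protein. ATP5MC1 stood at 9.35, 8.67 and 14.81 FPKM in control cells and 6.41, 16.24 and 15.87 in KO cells (0.15, SE 0.36, adjusted p = 0.87). ATP5MC2 stood at 5.91, 11.67 and 10.92 against 12.05, 9.61 and 11.98 FPKM (0.26, SE 0.26, adjusted p = 0.637). ATP5MC3 stood at 14.20, 12.88 and 13.55 against 13.84, 16.12 and 15.74 FPKM (0.16, SE 0.14, adjusted p = 0.606). Together they gave 29.5, 33.2 and 39.3 FPKM in the vector controls and 32.3, 42.0 and 43.6 in the KO libraries. ATP5MC3 supplied the largest share of this sum in vector control 1 (48.2%), vector control 2 (38.8%) and KO 1 (42.8%), and ATP5MC1 in vector control 3 (37.7%), KO 2 (38.7%) and KO 3 (36.4%). In GENCODE 29 the 3 genes share 0 transcript words of 50 bases. ATP5IF1, which inhibits the enzyme when it runs in reverse, had a log2 fold change of 0.00314, and ATP5MD, a membrane subunit at a mean of 101.6 FPKM, of -0.000719.

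**Figure D4:**
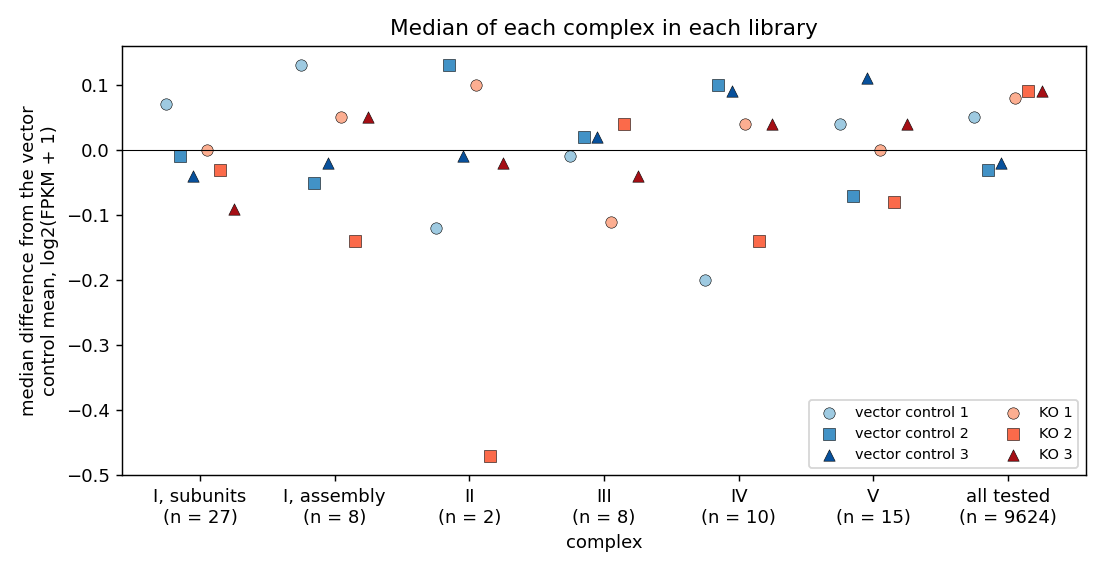
Points give, for each complex and library, the median over its genes of the difference from the vector control mean on the log2(FPKM + 1) scale, beside the same over all tested rows. Vector control 1 and KO 2 are the lowest libraries for complex IV, at -0.20 and -0.14, and for complex II, whose median is over 2 genes, KO 2 is lowest at -0.47.

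A further 19 rows joined a matching symbol with neighbouring genes and were left out of the counts above, because their value cannot be assigned to 1 gene. Of these, 18 were tested and 0 called. The row NDUFA13;YJEFN3;AC011448 had the highest fold change. It stood at 3.73, 4.54 and 6.10 FPKM in control cells (mean 4.79) and 15.40, 11.60 and 7.33 in KO cells (mean 11.4). The difference was 2.1-fold in FPKM + 1 (log2 fold change 1.07, SE 0.28, adjusted p = 0.141). NDUFA13, also known as GRIM19, is a membrane-arm subunit of complex I. DONSON;ATP5PO;AP000311 stood at 19.24, 15.62 and 16.09 against 24.23, 22.90 and 25.92 FPKM (0.50, SE 0.15, adjusted p = 0.17), and OTUB1;COX8A;AP000721 at 13.68, 16.40 and 16.23 against 10.95, 13.04 and 10.92 (-0.38, adjusted p = 0.265). These 3 rows were chosen after their values were seen, and their groups did not overlap. Of the 18 tested joined rows, 5 did not overlap (3 higher and 2 lower in KO), a share near the 23.8% of all rows. The others were SDHD;BCO2;TEX12 and NDUFA11;FUT5;AC024592 (0.11, adjusted p = 0.716). Core subunits of complex I were among the joined rows too: PTPMT1;NDUFS3 had a log2 fold change of -0.20 and ANKRD12;NDUFV2 of 0.06.

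The 13 mitochondrially encoded partner subunits were listed at 0 in every library. Every cell uses these genes, so the zeros can be unmeasured values, and the balance of nuclear and mitochondrial transcripts was not analysed here.

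No gene of the surrounding pathways was called, but at the 1.35% called among all tested rows, lists of this size would hold few or no calls in any case. Of 34 tested assembly factors of complexes I to V outside the NDUFAF family, 0 were called, with a median log2 fold change of 0.05 and a range from -0.39 for COA6 to 0.62 for LYRM7, a chaperone of the Rieske protein. Of 11 tested coenzyme Q synthesis genes 0 were called (median 0.10), from -0.79 for COQ10B, which binds coenzyme Q, to 0.48 for COQ4. COQ10B stood at 14.60, 26.21 and 21.93 FPKM in control cells and 12.75, 8.90 and 12.87 in KO cells (adjusted p = 0.191). Of 16 tested genes of pyruvate dehydrogenase and the citric acid cycle 0 were called (median -0.18), from -0.48 for PDHX to 0.28 for OGDH.

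The other enzymes that feed coenzyme Q held the pathway gene nearest to the threshold. ETFDH passes electrons from fatty acid oxidation to coenzyme Q. It stood at 2.80, 2.52 and 2.41 FPKM in control cells (mean 2.58) and 4.19, 5.46 and 5.01 in KO cells (mean 4.89). The difference was 1.64-fold in FPKM + 1 (log2 fold change 0.71, SE 0.15, adjusted p = 0.0905). Its groups did not overlap, and it did not pass. GPD2, the mitochondrial glycerol phosphate dehydrogenase, stood at 12.72, 6.69 and 2.87 against 3.27, 4.09 and 4.39 FPKM (-0.60, SE 0.42, adjusted p = 0.502). In all, 4 genes of this list were tested and 0 called. CYCS, the mobile electron carrier cytochrome c, stood at 47.02, 22.07 and 22.55 FPKM against 6.19, 22.06 and 25.07 (-0.86, SE 0.53, adjusted p = 0.436), and its fold change rested on vector control 1 and KO 1.

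Among 9 tested transcription factors and coactivators of nuclear respiratory genes 0 were called (median 0.05). YY1 had the lowest fold change, at 13.14, 17.23 and 17.26 FPKM in control cells and 11.06, 8.66 and 10.56 in KO cells (-0.60, SE 0.17, adjusted p = 0.162), without overlap. GABPB2, a GABP subunit, had the highest, 0.52 (adjusted p = 0.415), and NRF1 stood at 2.90, 1.55 and 1.43 against 2.22, 2.65 and 3.11 FPKM (0.33, adjusted p = 0.474). The coactivator gene PPARGC1A reached at most 0.01 FPKM. Of 9 tested genes for mitochondrial DNA transcription and replication 0 were called (median 0.11, from -0.20 for POLG to 0.45 for TEFM). Of 6 tested carrier and porin genes 0 were called (median 0.03). They ran from -0.43 for VDAC1, the main outer membrane channel, at 87.62, 81.31 and 84.99 against 72.88, 53.10 and 63.16 FPKM (adjusted p = 0.237), to 0.36 for VDAC3.

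With each library left out in turn, 0 of the 70 members passed. In 5 of these 6 fits only 0.26% to 1.26% of all rows were called, so that 0 of 70 says little about the members. Without vector control 1, which stood apart from the other vector controls, 13.8% of all rows were called and 0 members, with a lowest adjusted p of 0.0566. With robust limma and array weights, which gave vector control 1 a weight of 0.151 and KO 1 of 0.333, 9 members were called (12.9%) where 41.8% of all rows were. They were NDUFV3 (0.93), NDUFAF8 (0.63), NDUFA6 (0.56), NDUFA8 (0.43) and NDUFB1 (0.40), which were higher in KO, and NDUFB4 (-0.55), UQCRH (-0.50), NDUFAF2 (-0.46) and SDHB (-0.34), which were lower. Both weights are low for libraries in which NDUFV3 and NDUFA8 differed from the rest of their group. In NDUFB1, UQCRH, NDUFAF2 and SDHB, also called, the groups were fully apart in the unweighted values. The part of the weights in these calls was not tested.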

How the data were processed

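Total RNA of 6 MIA PaCa-2 libraries (3 KO, 3 vector control, grouped by title) was sequenced. The authors deposited 1 table of FPKM with 2 decimals and 1 column per library. HISAT2, cutadapt and FastQC, and the build hg19, are named per the submitters' processing notes. Strand handling, the gene annotation and the FPKM program remain not given in the sources used here, so reads of overlapping or antisense genes may not be separated. Low values of 994 genes were examined for whole-read steps and did not give them, so depth is unknown.

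Rows with at least 1 FPKM in at least 3 libraries were tested with limma 3.58.1 in R 4.3.3 (lmFit, eBayes with trend) on log2(FPKM + 1). The scale understates changes of low genes. Tests were two-sided, without covariates, with Benjamini-Hochberg adjustment over 9624 rows and a threshold of 0.05. The procedure was also run on simulated data. Whether it would call differences as small as those of the members was not tested. Intervals use the moderated degrees of freedom. Lists and complexes are described by counts and medians, with no test.

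Full values were given for all of complex II and for the 2 highest and 2 lowest fold changes elsewhere in each complex and among the assembly factors. They were also given for the most abundant row of each complex, and for core subunits of complex I and isoform sets where these were members. Joined rows were given only in part, and those holding COX6A1 and COX6B2 were left out. The values of 1 member are not reported here. Of other lists, the highest and lowest fold change are named. Other names were chosen after their values were seen. Members and lists were chosen with earlier results of these data known. Alternatives were another pseudocount, other filters, 2 scalings, other variance models, a replicate block and each library left out.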

Additional observations from a re-analysis of the deposited data

How the results depend on the processing

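Robust limma with array weights called 5 members higher and 4 lower, where it called 41.8% of all rows. The other alternatives called 0 members in each direction. Apart from the fit without vector control 1 (13.8%), they called 0.0727% to 1.67% of all rows, so a count of 0 among 70 members shows little. The medians by complex moved by more than their spread between libraries in 10 cases. With median scaling they were -0.07 for complex I subunits, -0.12 for complex III and -0.08 for complex V, and with a filter at 5 FPKM -0.14 for complex I assembly factors (3 left) and -0.11 for complex III (6 left). With quantile normalization the assembly factors stood at -0.12, and with robust limma and array weights complex IV at -0.17. Leaving out 1 library at a time gave medians from -0.05 (without vector control 2) to 0.02 for complex I subunits, -0.03 to 0.13 for assembly factors, -0.24 to 0.04 for complex II, -0.07 to -0.00248 for complex III, -0.15 (without vector control 1) to 0.09 for complex IV and -0.08 (without KO 1) to 0.03 for complex V. The cause was not tested. Libraries with the same replicate number did not deviate together. Deviations of vector control 1 and KO 1 correlated at -0.374, those numbered 2 at -0.153 and those numbered 3 at -0.264. Deviations sum to 0 within each group, so such correlations are not independent. They cannot show whether libraries with the same number were prepared together. Between unequal numbers, vector control 1 correlated at 0.183 with KO 2 and at 0.324 with KO 3. KO 1 correlated at 0.306 with vector control 2 and at 0.301 with vector control 3. Vector control 2 with KO 3 gave -0.263, and vector control 3 with KO 2 gave -0.145. With the replicate number as a block, limma called 0 members and 7 of all rows, against 130 without it. The precision is limited by 3 libraries per group, whose depth is unknown.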
